A study of Mus musculus with 8 samples.

Results

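Chromatin accessibility was examined at 9 genes that regulate or mark the neural lineage: Sox1, Sox21, Sox11, Pax6, Nes, Neurog2, Pou3f2, Hes1 and Zfp521. A peak was taken when its centre lay inside the GRCm38 span of one of these genes or within 50 kb of it. Of the 134407 peaks in the table, 96 met this rule. The nearest protein-coding gene was the named gene for 76 of them and another gene for 20, which are given under their own names. Of the 76 peaks, 72 reached a mean of 10 over the libraries and were tested, among 127402 tested peaks in all. The rule took peaks by position only, and the test also required the mean of 10. The genes themselves were chosen with earlier results of these data known.

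The libraries came from wild-type mouse embryonic stem cells of the E14 line, kept on gelatin in medium with fetal bovine serum and LIF. In 4 control libraries the cells had no added inhibitor, and in 4 paused libraries they had received 200 nM INK128 for 24 h. INK128 blocks the kinase mTOR, and inhibition of mTOR holds embryonic stem cells in a slow, pluripotent state that resembles the arrest of the blastocyst in diapause. The assay was ATAC-seq. Tn5 transposase cuts open chromatin and leaves sequencing adapters there, so that a value counts insertions at a site and not RNA.

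In the embryo, the neural route is entered through SoxB1 factors and zinc finger proteins such as Zfp521, which turn on neural genes in the ectoderm. Notch signalling through Hes repressors then keeps progenitors dividing, while proneural bHLH factors such as Neurog2 drive them to become neurons, in which SoxC and POU factors act. Most of these genes are silent in embryonic stem cells and lie in CpG-rich domains that carry Polycomb marks, and their start sites can nevertheless be open.

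The start sites of Sox11 and Sox21 were the only ones among the 7 genes with an entry in the RefSeq promoter table (build GRCm38.p6) whose window was overlapped by a peak, and these windows are shown. Each runs from 250 bases before to 50 bases after the start site, 5′ to 3′ on the minus strand, and capitals mark the bases that lie inside the peak. The Sox11 window is chr12:27342669-27342968 with 79 bases in the peak, and the Sox21 window is chr14:118236981-118237280 with 104 bases in the peak. All members but Hes1 and Zfp521 matched the table.
Sox11: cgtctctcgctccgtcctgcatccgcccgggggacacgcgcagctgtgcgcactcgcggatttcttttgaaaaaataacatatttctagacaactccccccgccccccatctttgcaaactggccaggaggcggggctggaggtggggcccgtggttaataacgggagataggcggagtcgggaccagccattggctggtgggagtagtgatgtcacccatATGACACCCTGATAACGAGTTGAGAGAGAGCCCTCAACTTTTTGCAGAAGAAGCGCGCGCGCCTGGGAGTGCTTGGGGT
Sox21: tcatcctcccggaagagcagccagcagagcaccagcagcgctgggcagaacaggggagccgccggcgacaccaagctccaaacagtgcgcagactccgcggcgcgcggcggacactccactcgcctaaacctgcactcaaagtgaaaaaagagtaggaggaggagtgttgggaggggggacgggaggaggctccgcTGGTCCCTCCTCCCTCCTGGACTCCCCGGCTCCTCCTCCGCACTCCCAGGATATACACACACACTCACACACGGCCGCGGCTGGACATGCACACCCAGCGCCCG

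Both windows were richer in CpG than most. The Sox11 window held 21 CpG pairs at 58.7% G + C and the Sox21 window 22 at 65.7%, against medians of 7 pairs and 52.7% over 32851 windows of the same length. The Sox1 window was the richest of the members, with 37 pairs at 70.7%. On either strand, an NF-Y box (CCAAT) began at position -60 of Sox11, and 37.4% of all windows held one. Windows of Pax6, Pou3f2 and Sox1 held it as well. A Hes N-box (CACNAG) began at -55 of Sox11 and at -221 of Sox21, and 42.5% of all windows held one. Windows of Pax6 and Neurog2 also had an N-box. An E-box (CAGCTG), present in 16.3% of all windows, began at -210 of Sox11. The octamer bound by POU factors (ATGCAAAT) was found in the Sox1 window alone among the members, at position 19 after the start, and in 1.74% of all windows. The Rbpj core (TGGGAA) was also found only in Sox1 among the members, with 25.6% of all windows holding it, and the Sox motif (ACAATG, 12.6% of all windows) was in none of them. No motif search was made inside the peaks away from the start sites, because no genome sequence was used here.

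Across the whole table the libraries differed in depth and in scale. Reads in peaks ranged from 4434037 to 6262445 in 3 control libraries and from 5216700 to 7238935 in the paused libraries, and control replicate 1 had 21161767. The authors' scaled values summed to 7315541 to 7653989 in the control libraries and to 8062921 to 8640948 in the paused libraries. The median log2 change was 0.10 over all tested peaks and 0.15 over the summed values of 18113 genes. A change at a member gene is therefore also given relative to that median or after another scaling. TMM scaling, which assumes that most sites do not change, put the medians at -0.0078 and -0.0023. All 8 markers of embryonic stem cells had a peak within 2 kb of an end, and their summed value was 1167 to 1246 in control and 1332 to 1496 in paused libraries. The same sum was 237 to 283 and 261 to 303 for 3 of 5 primitive endoderm markers (Gata4 and Dab2 had no such peak), 129 to 152 and 157 to 163 for 5 of 5 trophoblast markers, and 260 to 326 and 304 to 361 for 4 of 4 fibroblast markers. Within the trophoblast sum the rise lay at Tfap2a, whose peak had a log2 change of 0.94. The peaks of the other trophoblast markers had log2 changes of -0.52 (Cdx2), -0.08 (Gata3), -0.05 (Elf5) and 0.01 (Krt8). The part of other cell types in the changes at the neural genes was not tested. In bulk libraries a larger share of cells with an open site and more insertions per cell cannot be told apart.

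Summed over its assigned peaks, accessibility was higher in paused cells at 5 of the 9 genes (Zfp521, Sox21, Sox1, Sox11 and Hes1) and lower at none (limma-trend, adjusted p under 0.05). Among all genes, 29.6% were called higher and 1.40% lower, and all 9 members had a summed log2 change above 0. At 4 of the 5, every paused library lay above every control library, and the exception was Hes1. Relative to the median of all genes the 5 changes came to 0.28 for Zfp521, 0.15 for Sox21, 0.12 for Sox1, 0.11 for Sox11 and 0.03 for Hes1 on the log2 scale. Zfp521 stood at percentile 94.6 of all genes by log2 change, and the others lay between percentile 29.2 (Neurog2) and 83.9 (Sox21).

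**Figure D1:**
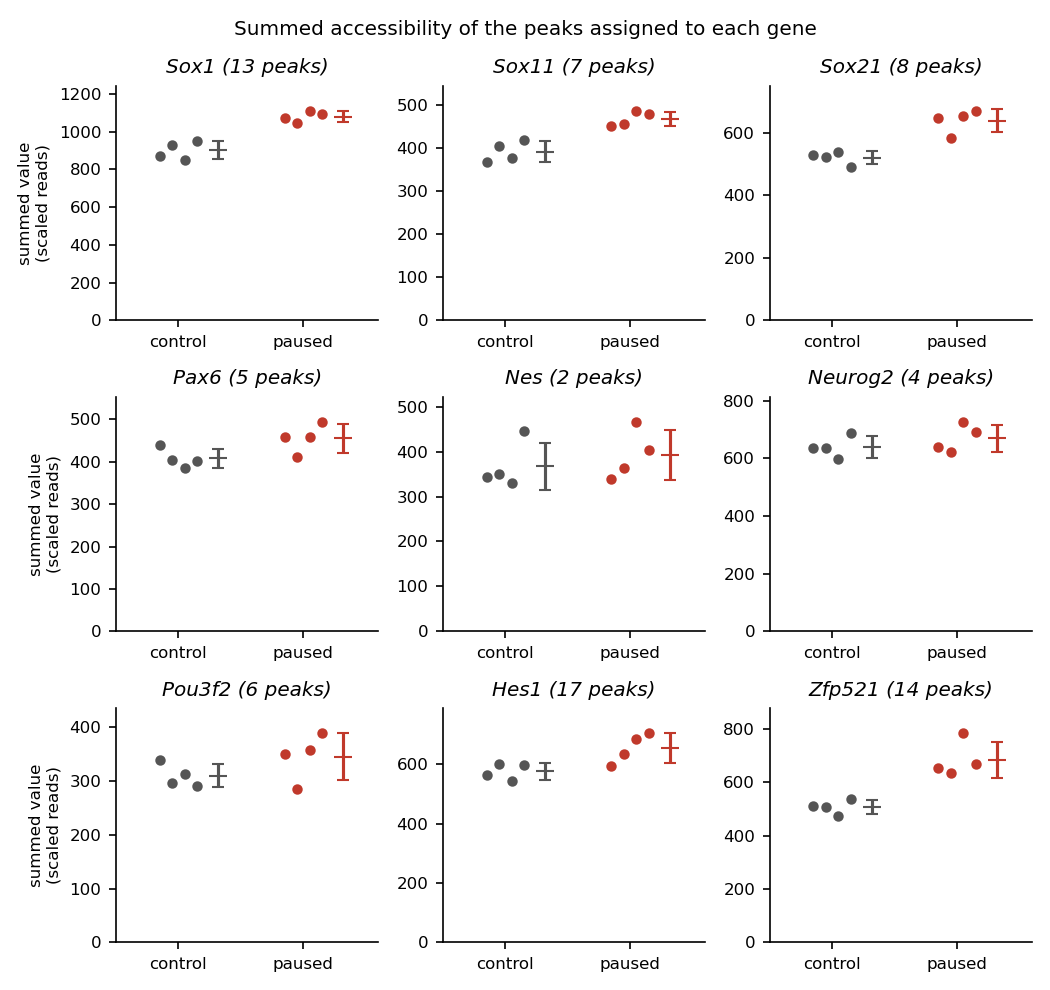
Summed value of the assigned peaks (y axis, scaled reads) in the 4 control (grey) and 4 paused (red) libraries for each gene, with the mean and SD as bars to the right. The groups do not overlap at Sox1, Sox11, Sox21 and Zfp521, where the paused means are 1081, 468, 639 and 686 against control means of 901, 391.6, 521 and 508.

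Other fits kept 1 of these calls. With TMM scaling and edgeR on the recovered reads only Zfp521 was called, with a log2 change of 0.28 (adjusted p = 0.00529), where 4.92% of all genes were called higher and 4.87% lower. DESeq2 gave 0.28 (adjusted p = 0.00761, 2.86% of all genes called higher), and limma-trend on values corrected by a loess curve on peak strength gave 0.30 (adjusted p = 0.00235, 4.92% called higher). In those fits Sox1, Sox11, Sox21 and Hes1 remained above 0, between 0.03 and 0.14, without a call. Pax6, Nes, Neurog2 and Pou3f2, which were above 0 with the authors' scaling, fell on the other side of 0 in all of them, from -0.0037 to -0.14.

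**Figure D2:**
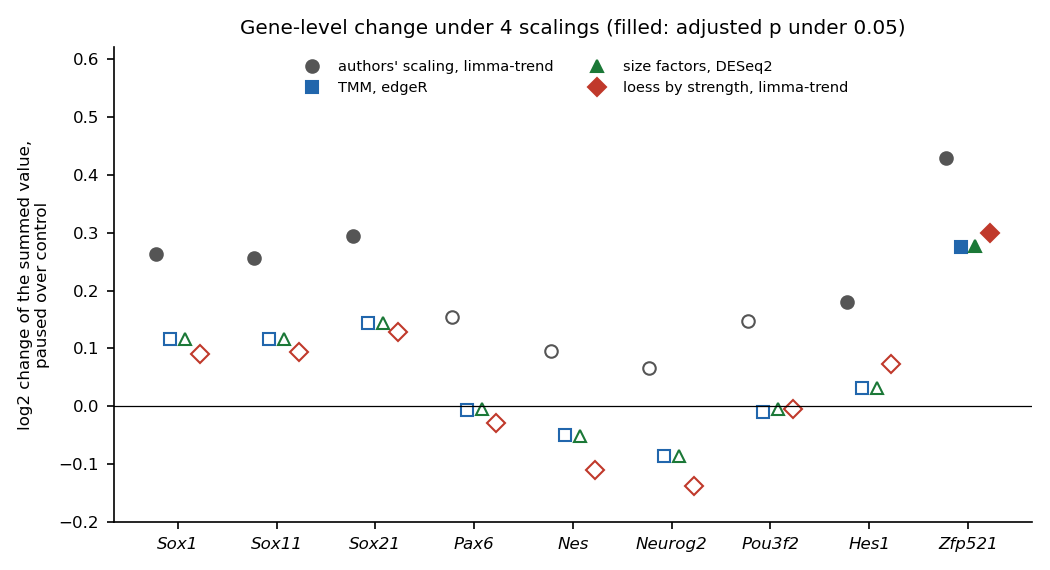
Log2 change of the summed value (y axis, paused over control) of each gene with the authors' scaling and limma-trend (grey circles), TMM and edgeR (blue squares), DESeq2 (green triangles) and a loess correction (red diamonds). Filled symbols have an adjusted p under 0.05, which only Zfp521 reaches with all of them.

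At the level of single peaks, 8 of the 72 tested peaks were called higher and 1 lower in paused cells, against 11.0% and 2.91% of all tested peaks. The members' share of higher calls was thus near that of the table. All paused values lay above all control values at 12 of the 72 peaks and below at 1, where the shares over all tested peaks were 13.0% and 4.36%. The median log2 change of the 72 peaks was 0.21, with 17 of them below 0, and it was 0.19 over the 60 peaks outside Zfp521. edgeR with TMM called 6 of the 72 higher and 1 lower (7.13% and 5.54% of all peaks), DESeq2 2 and 0 (3.06% and 1.49%), and the loess correction 5 and 0 (5.08% and 3.54%). Without control replicate 1, the deepest library, 6 were called higher and 0 lower. Over all tested peaks these calls were 10623 and 2331, against 13958 and 3702 with all libraries. The higher calls fell to 4 without paused replicate 3 and to 5 without paused replicate 4, and the lower call was lost on leaving out control replicate 1, 2 or 3 or paused replicate 1 or 2. Without paused replicate 3, 2 peaks were called lower. Over all tested peaks, 11854 were called higher and 3871 lower without paused replicate 3. Without paused replicate 4 these numbers were 8980 and 2587. Of the 9 called peaks, 2 were called by edgeR, DESeq2 and the loess correction and also after each library was left out in turn. One lies inside Zfp521 and the other just beyond the 3′ end of Sox21.

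**Figure D3:**
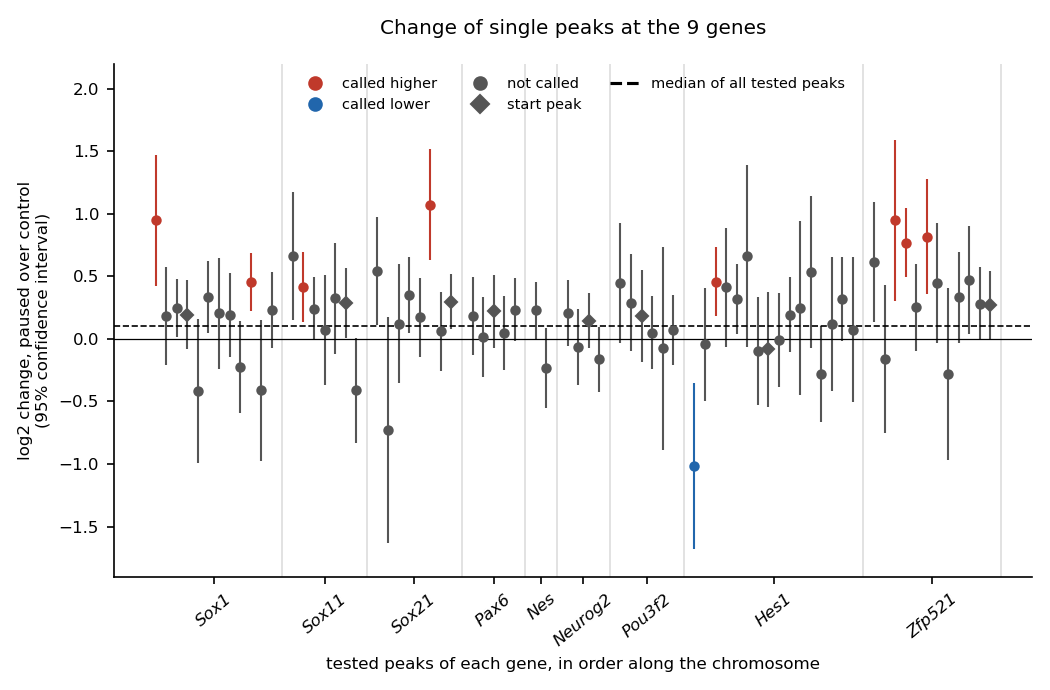
Log2 change of each of the 72 tested peaks (y axis, paused over control, with the 95% confidence interval), grouped by gene and in order along the chromosome, with the median of all tested peaks (0.10) as a dashed line. The 8 peaks called higher (red) lie at Sox1, Sox11, Sox21, Hes1 and Zfp521, and the 1 called lower (blue) lies at Hes1. Diamonds mark the peak of each gene nearest to a start site, or to either end at Hes1 and Zfp521, within 2 kb. None of these was called by limma-trend.

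At no gene did the peak nearest to the start within 2 kb pass the limma-trend test. For Hes1 and Zfp521, without a listed start site, the peak nearest to either end was taken. Elsewhere the distance from the start ran from 46 bp at Sox21 to 1725 bp at Sox1. These peaks thus do not all lie on a start site. Their log2 changes ran from -0.08 at Hes1 to 0.30 at Sox21, with a median of 0.21, and the 95% intervals of 6 of the 8 included 0. These peaks differed in strength, and since all peaks are 201 bp wide their values can be set side by side. The peak at Neurog2 averaged 304 over the 8 libraries and that at Sox21 273, then came Sox1 with 150, Zfp521 with 107, Pax6 with 92.1, Sox11 with 80.9 and Pou3f2 with 58.2. At Hes1 the peak nearest to an end of the gene averaged 25.3. Transcription was not measured in these libraries. Nes had no peak within 2 kb of its start. Pax6 has 2 listed start sites, and its peak lay 1720 bp from the inner one, 11.8 kb inside the gene. The peak nearest to the outer start of Pax6 was 7.26 kb away.

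Sox1 encodes the SoxB1 factor that marks the earliest neuroectoderm. It lies at chr8:12395519-12399555 on the plus strand, and 13 peaks were assigned to it, of which 12 were tested, 2 were called higher and none lower. Summed values in control replicates 1 to 4 were 870, 929, 852 and 952, and in paused replicates 1 to 4 they were 1072, 1047, 1109 and 1094. The lowest paused library was above the highest control library, with a log2 change of 0.26 ± 0.05 (SE) and an adjusted p of 0.000856, or 0.12 and an adjusted p of 0.122 with edgeR and TMM.

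The strongest Sox1 peak was distal, 39.7 kb beyond the 3′ end at chr8:12439183-12439383. Its control values were 204, 173, 174 and 210 and its paused values 218, 290, 264 and 275, so that the groups did not overlap although paused replicate 1 lay close to the controls. The log2 change was 0.46 ± 0.12 (SE, adjusted p = 0.00615), and the call stood after each library was left out. It was 0.33 in edgeR (adjusted p = 0.0356), and neither DESeq2 (adjusted p = 0.0943) nor the loess correction (0.25, adjusted p = 0.139) called it.

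The other called Sox1 peak lay 49.5 kb before the start, at chr8:12345949-12346149, just inside the 50 kb window. Values were 20.4, 25.1, 10.2 and 22.0 in control and 23.1, 47.3, 49.7 and 32.8 in paused libraries, and paused replicate 1 fell within the control range. The log2 change was 0.95 ± 0.26 (SE, adjusted p = 0.0113). edgeR (adjusted p = 0.0196) and the loess correction (0.0248) called it and DESeq2 did not (0.0993). The call was lost without control replicate 3 (0.68, adjusted p = 0.0642), paused replicate 2 (0.83, adjusted p = 0.0555) and paused replicate 3 (0.80, adjusted p = 0.0513). Peaks close to the gene showed no call: inside the gene, 1725 bp from the start, the means were 140 ± 27.2 and 161 ± 33.1 (SD, n = 4 each), a log2 change of 0.19 with a 95% interval from -0.08 to 0.47. Most of the Sox1 peaks lie within the span of Sox1ot, the noncoding transcript that overlaps the gene, while both called peaks lie outside it.

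Sox21, a SoxB2 repressor that opposes SoxB1 factors and favours the exit of progenitors into neurons, lies at chr14:118233233-118237030 on the minus strand. Its 8 peaks were all tested. The peak with the largest rise among all the members lay 2613 bp beyond the 3′ end, at chr14:118230520-118230720. Control values were 18.0, 14.3, 20.3 and 19.1 and paused values 41.5, 34.7, 37.2 and 41.0. The groups were far apart, with the lowest paused value above the highest control value in a peak covered by 12 to 52 reads a library. The log2 change was 1.07 ± 0.22 (SE, adjusted p = 0.000873), and it was 1.02 in edgeR (adjusted p = 0.000758), 1.02 in DESeq2 (adjusted p = 0.0132) and 1.01 after the loess correction (adjusted p = 0.0027).

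A stronger neighbouring peak nearer to the gene, at chr14:118231127-118231327, had means of 73.5 ± 15.1 in control and 75.7 ± 7.97 in paused libraries (SD, n = 4 each), a log2 change of 0.06 with an interval from -0.25 to 0.38. The start site peak at chr14:118236884-118237084, whose sequence in part is shown above, was the strongest of Sox21. It had values of 218, 248, 274 and 237 in control and 323, 256, 317 and 308 in paused libraries, with paused replicate 2 inside the control range. The log2 change was 0.30 ± 0.11 (SE), and the adjusted p of 0.0627 missed the threshold. It passed without control replicate 3 (0.35, adjusted p = 0.0499) and without paused replicate 2 (0.37, adjusted p = 0.0352). The gene's sum rose from 521 ± 21.2 to 639 ± 37.1 (SD, n = 4 each), a log2 change of 0.29 (adjusted p = 0.00224) that edgeR with TMM did not call (0.14, adjusted p = 0.146).

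Sox11 encodes a SoxC factor that switches on neuronal genes in cells leaving the cycle. It lies at chr12:27334268-27342718 on the minus strand with 7 peaks, all tested. The start site peak at chr12:27342547-27342747 had values of 70.2, 75.2, 74.5 and 70.5 in control and 83.1, 94.6, 99.3 and 79.7 in paused libraries. All paused values lay above all control values, yet the log2 change of 0.29 ± 0.14 (SE) had an adjusted p of 0.164. The only called peak lay 22.2 kb beyond the 3′ end at chr12:27312001-27312201, within the noncoding gene Gm52005. It had means of 92.7 ± 15.0 and 123 ± 17.3 (SD, n = 4 each), overlapping groups, a log2 change of 0.41 and an adjusted p of 0.0398.

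That Sox11 call was not made by edgeR (adjusted p = 0.107), DESeq2 (0.299) or after the loess correction (0.346), and was lost on leaving out any of 6 libraries. The adjusted p was 0.0666, 0.0928 and 0.126 without control replicates 1, 2 and 3, and 0.136, 0.0753 and 0.0763 without paused replicates 1, 3 and 4. The strongest Sox11 peak, 13.4 kb beyond the 3′ end, had means of 117 ± 9.65 and 139 ± 14.5 (SD, n = 4 each) and an adjusted p of 0.197. Summed, Sox11 had 366, 404, 378 and 419 in control and 451, 456, 486 and 478 in paused libraries, again without overlap, with a log2 change of 0.26 (adjusted p = 0.0112) and of 0.12 in edgeR (adjusted p = 0.309).

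Pax6, the paired homeodomain factor of cortical progenitors and the eye, lies at chr2:105668896-105698410 on the plus strand. All of its 5 peaks were tested and none was called. Their log2 changes lay between 0.01 and 0.23, the narrowest range of any member with more than 2 peaks. The strongest, inside the gene at chr2:105691323-105691523, had 110, 107, 110 and 98.5 in control and 119, 136, 129 and 118 in paused libraries. The groups did not overlap there, but the log2 change of 0.23 (95% interval -0.02 to 0.49) had an adjusted p of 0.21. One Pax6 peak lies before the gene, within the noncoding genes Paupar and Pax6os1, and had a log2 change of 0.18 (adjusted p = 0.459).

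Nes encodes nestin, the intermediate filament by which neural progenitors are recognised. Its surroundings were dense in genes, and 17 of the 19 peaks in its window were nearer to Rrnad1, Isg20l2, Crabp2, Bcan or Hapln2. Of these 17, 15 were tested and limma-trend called none, nor did it call the 3 peaks in the Sox21 window nearer to Gpr180 or Gm9376. One peak inside Bcan, at chr3:87990020-87990220, was lower in edgeR (-0.66, adjusted p = 0.0166) and after the loess correction (-0.63, adjusted p = 0.0358), but not in limma-trend (-0.53, adjusted p = 0.0667) or DESeq2 (adjusted p = 0.114). Over all tested peaks, limma-trend called 11.0% higher and 2.91% lower. Before adjustment, 4 of these 18 tested peaks nearer to other genes had a limma p under 0.05. The share of all tested peaks with such a p is not given here. The peak inside Nes at chr3:87974298-87974498 had 250, 254, 217 and 284 in control and 254, 287, 338 and 299 in paused libraries, with overlap. Its log2 change was 0.23 (95% interval 0.00 to 0.45, adjusted p = 0.171), whereas the other Nes peak, 2805 bp beyond the 3′ end, had a change of -0.23 (adjusted p = 0.334). With all 19 peaks of the window summed, the log2 change at Nes was 0.14 (adjusted p = 0.0221), in a fit that called 10116 of 20225 genes higher.

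Neurog2, a proneural bHLH factor that commits progenitors to a glutamatergic neuronal fate, had the strongest single peak of the 9 genes. It lies inside the gene at chr3:127634200-127634400, at percentile 98.2 of all peaks. Control values were 277, 295, 262 and 319 and paused values 324, 271, 355 and 329. These overlap, and the log2 change was 0.15 (95% interval -0.07 to 0.36, adjusted p = 0.384), or -0.06 after the loess correction. The 4 Neurog2 peaks had changes between -0.16 and 0.21, and the sums of 640 ± 37.6 and 670 ± 47.4 (SD, n = 4 each) differed by a log2 change of 0.07 (adjusted p = 0.464).

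Pou3f2, also named Brn2, is a POU class III factor of neural progenitors and upper-layer neurons. None of its 6 peaks was called. The peak 513 bp before the start had 71.9, 56.1, 54.2 and 36.7 in control and 63.5, 44.2, 62.1 and 77.3 in paused libraries, which overlapped widely. The log2 change there was 0.18 (95% interval -0.19 to 0.55, adjusted p = 0.542) with the authors' scaling and -0.03 in edgeR with TMM. The strongest peak, 10.1 kb before the start, had a log2 change of 0.07 (adjusted p = 0.782), which turned to -0.02 without paused replicate 3. Of the 17 peaks at Pax6, Nes, Neurog2 and Pou3f2, 1 had a limma p under 0.05 before adjustment, which was the peak inside Nes. This count, too, stands without the share of all tested peaks.

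Hes1, the bHLH repressor that carries out Notch signals, lies at chr16:30065357-30067796. It had 17 assigned peaks, 16 of them tested, spread on both sides and none inside the gene, and it was the only member with peaks called in both directions. The peak called lower lay 44.7 kb to the lower-coordinate side at chr16:30020567-30020767, within the noncoding gene 4632428C04Rik. Values were 19.4, 17.9, 18.6 and 13.2 in control and 6.92, 7.89, 7.76 and 9.37 in paused libraries, without overlap, at 5 to 8 reads in each paused library. The log2 change was -1.02 ± 0.33 (SE, adjusted p = 0.0321), with an adjusted p of 0.00543 in edgeR, 0.0672 in DESeq2 and 0.0936 after the loess correction.

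The Hes1 peak called higher was its strongest, 25.9 kb to the same side at chr16:30039333-30039533, within the noncoding gene 9030404E10Rik. It had 73.3, 71.7, 91.4 and 86.7 in control and 96.9, 117, 106 and 125 in paused libraries, without overlap, and a log2 change of 0.46 ± 0.14 (SE, adjusted p = 0.0214). edgeR called it as well (adjusted p = 0.0394), DESeq2 did not (0.184), nor did the loess correction (0.223). Both Hes1 calls depended on single libraries. The fall had an adjusted p of 0.114, 0.0737 and 0.0765 without control replicates 1, 2 and 3, and of 0.0604 and 0.0505 without paused replicates 1 and 2. The rise had 0.0744 and 0.0615 without control replicates 1 and 2, and 0.0586 and 0.0916 without paused replicates 2 and 4.

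Hes1's sum, 576 ± 28.1 in control and 653 ± 50.1 in paused libraries (SD, n = 4 each), overlapped between the groups. Its log2 change of 0.18 had an adjusted p of 0.0467, which rose to 0.0984, 0.13 and 0.0544 without control replicates 1, 3 and 4 and to 0.0568, 0.114 and 0.174 without paused replicates 2, 3 and 4. The peak nearest to an end of the gene, 346 bp away, had means of 26.0 ± 3.95 and 24.5 ± 4.00 (SD, n = 4 each).

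Zfp521 encodes a zinc finger protein that promotes the passage of embryonic stem cells into neural progenitors. It is the longest of the 9 genes, at chr18:13687013-13972749, and 14 peaks were assigned to it, of which 12 were tested, 3 were called higher and none lower. Its summed values were 511, 508, 474 and 539 in control and 653, 636, 785 and 670 in paused libraries. Every paused library exceeded every control library by a clear margin, with a log2 change of 0.43 ± 0.07 (SE, adjusted p = 0.000102). Dropping the strongest peak, a step chosen after seeing the data, left 0.33 (adjusted p = 0.000467), so that the change was not carried by that peak alone. The median log2 change of its tested peaks was 0.39, against 0.10 for all peaks.

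The strongest Zfp521 peak lay inside the gene at chr18:13712687-13712887, 25.8 kb from the lower-coordinate end. It had 85.7, 87.2, 91.4 and 121 in control and 135, 145, 191 and 190 in paused libraries. The groups were separate, with control replicate 4 above the other controls and paused replicates 3 and 4 above the other paused libraries. The log2 change was 0.77 ± 0.14 (SE, adjusted p = 0.000173), and it was 0.71 in edgeR (adjusted p = 8.58e-05), 0.69 in DESeq2 (adjusted p = 0.00156) and 0.57 after the loess correction (adjusted p = 0.0037). Leaving out single libraries kept it between 0.70 and 0.88.

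A weaker Zfp521 peak inside the gene at chr18:13742271-13742471 had 19.0, 15.5, 25.4 and 23.5 in control and 32.3, 39.4, 49.7 and 29.3 in paused libraries, without overlap. Its log2 change was 0.82 ± 0.23 (SE, adjusted p = 0.0128), and the call was lost without paused replicate 3 (0.68, adjusted p = 0.0607) and in DESeq2 (adjusted p = 0.0967). The third called peak, at chr18:13692364-13692564, had 18.7, 11.9, 8.47 and 5.88 in control and 20.8, 17.4, 26.4 and 19.9 in paused libraries. These overlapped at low depth, with only 4 reads in control replicate 4, and the log2 change of 0.95 (adjusted p = 0.0394) was not called by edgeR (0.48, adjusted p = 0.272). It was also lost without control replicates 3 and 4 (adjusted p = 0.085 and 0.139) and without paused replicates 1, 3 and 4 (0.0738, 0.107 and 0.0786). The peak 209 bp inside the higher-coordinate end had means of 97.6 ± 15.9 and 117 ± 13.7 (SD, n = 4 each) and an adjusted p of 0.195.

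**Figure D4:**
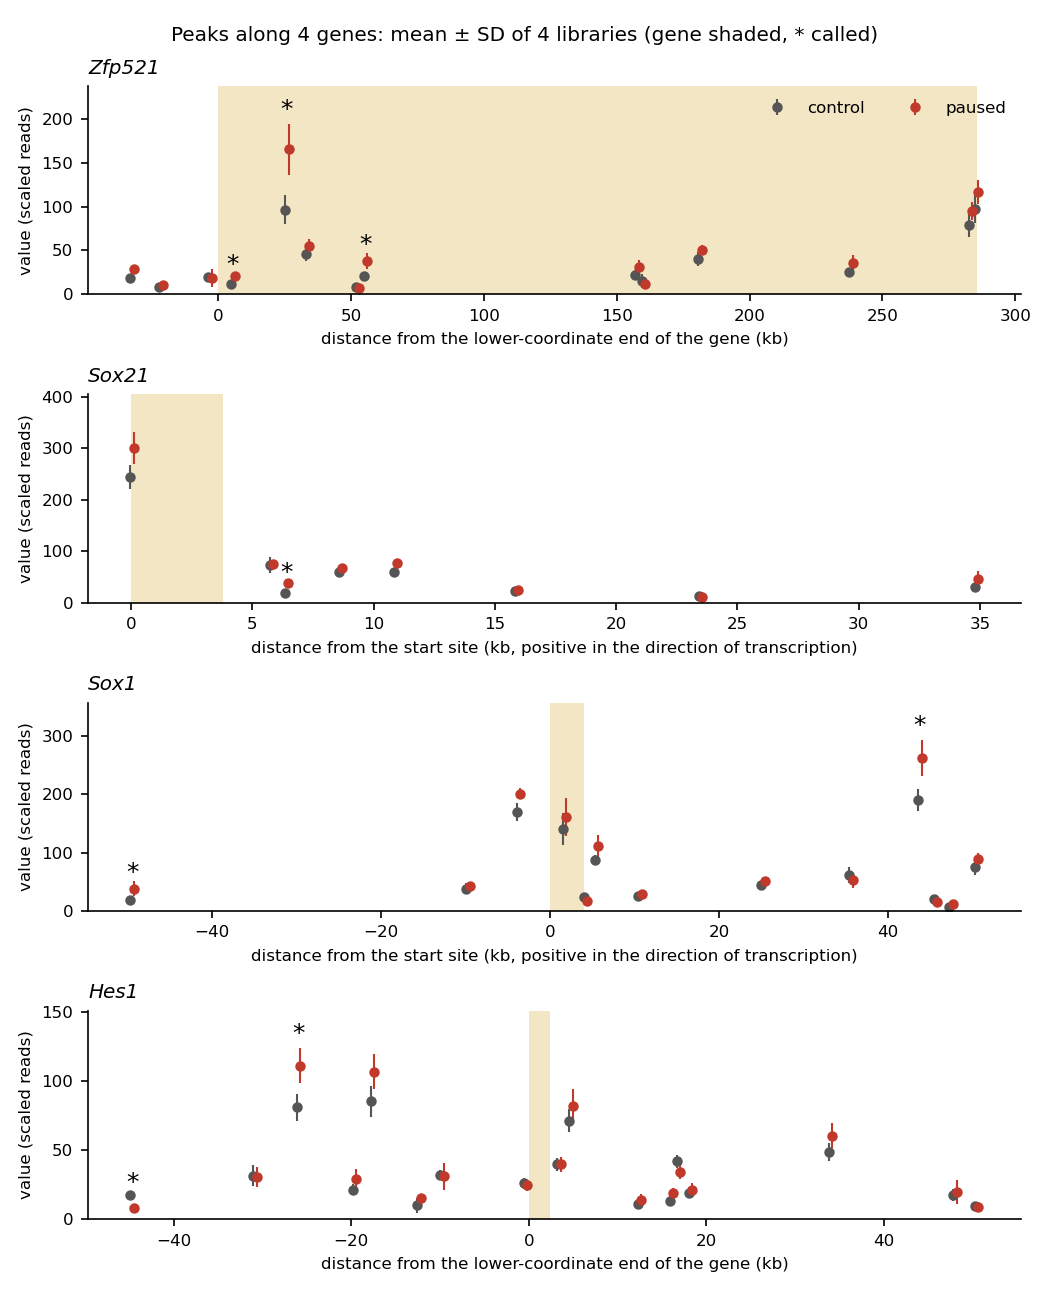
Mean value ± SD of 4 control (grey) and 4 paused (red) libraries (y axis, scaled reads) for each assigned peak of Zfp521, Sox21, Sox1 and Hes1 by its distance in kb (x axis) from the start site, or from the lower-coordinate end for Zfp521 and Hes1, with the gene shaded and called peaks starred. At Zfp521 the called peaks lie in the part of the gene near its lower-coordinate end, at Sox21 the called peak lies just beyond the gene, and at Sox1 and Hes1 the called peaks are over 25 kb away.

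**Figure D5:**
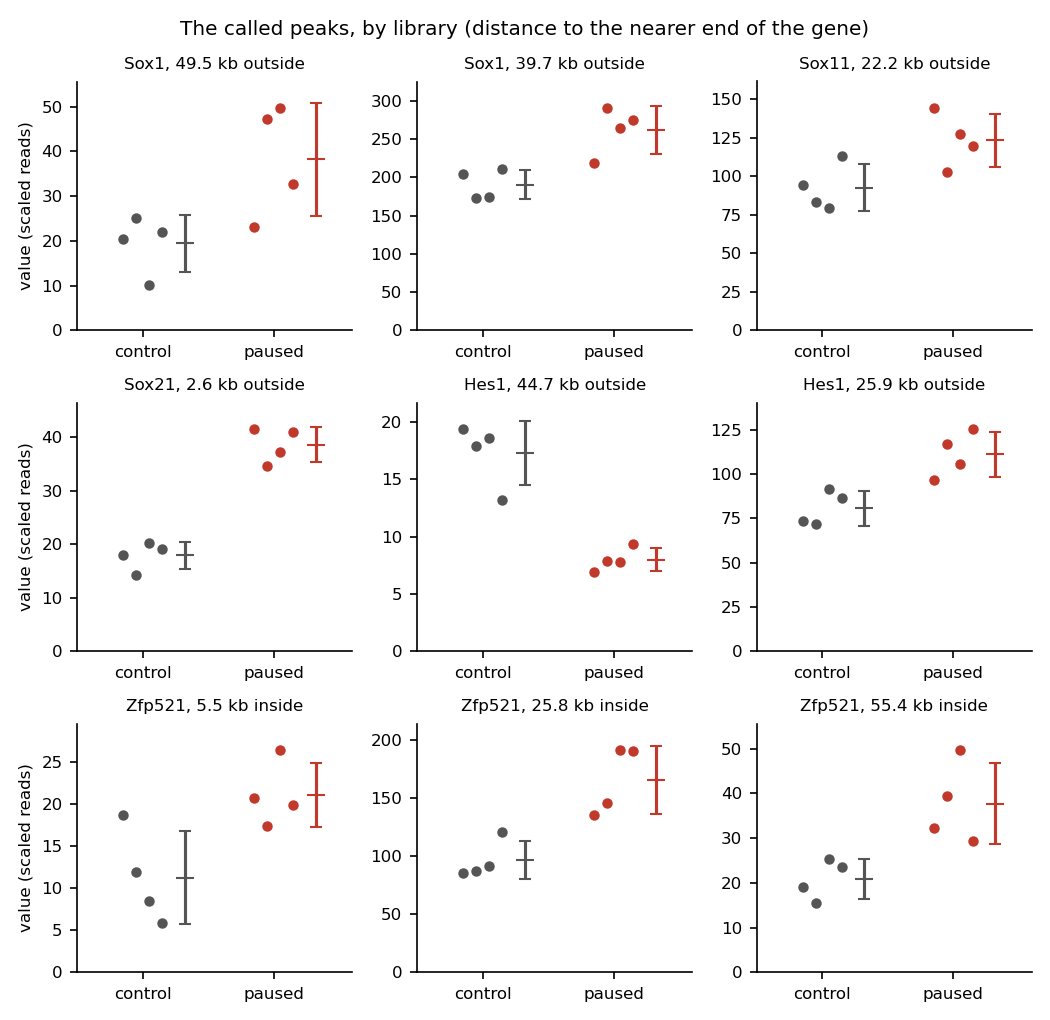
Value (y axis, scaled reads) of the 9 called peaks in each control (grey) and paused (red) library, with the mean and SD as bars. The groups are separate at 6 of the 9 peaks, and overlap at the Sox1 peak 49.5 kb from the gene, the Sox11 peak and the Zfp521 peak 5.5 kb inside the gene.

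The called peaks lay both inside and outside the genes. Of 21 tested peaks inside a member gene, 3 were called higher, all at Zfp521, and of 51 outside the genes 5 were called higher and 1 lower, where 11.0% and 2.91% of all tested peaks, at any position and strength, were called. The median log2 change was 0.27 inside and 0.18 outside, and these medians were not tested against each other. Zfp521, whose tested peaks had a median of 0.39, held more of the inside peaks than any other member. Of 14 peaks averaging 100 or more, 3 were called higher, and of 12 with a mean under 20, 1 was called higher and 1 lower, and these few calls were not tested against that share. Exons and introns were not told apart here.

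Over the 8 libraries, the gene whose summed value ran most like that of Zfp521 was Trio, with a Pearson r of 0.993. Each r was taken on log2(summed value + 1). For Sox1 it was Rims1 (0.993), for Sox21 Zfp568 (0.991), for Sox11 Npas3 (0.99) and for Hes1 Tmem178 (0.982). For Nes, Pax6 and Pou3f2 the nearest were Lin52, Epb41l1 and Tob2, at 0.965 to 0.974. These values are a description over 8 libraries in 2 groups that share their scaling, taken as the highest among all genes with at least 3 peaks.

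Genes related to the members were counted from lists, to be read against the 29.6% of all genes called higher and 1.40% lower by limma-trend, and 4.92% and 4.87% in edgeR. In the Notch list of 19 genes, which holds the receptors, ligands, Rbpj and the Hes and Hey relatives of Hes1, 4 sums were called higher and none lower, and with edgeR and TMM 2 were higher and 1 lower. The 2 were the Notch ligand Dll1, with a log2 change of 0.52 (0.36 in edgeR, adjusted p = 0.000303), and Rbpj, the DNA-binding partner of Notch, with 0.29 (0.15 in edgeR, adjusted p = 0.0203). Notch1 was the 1 lower, at -0.16 in edgeR (adjusted p = 0.0442), while its change with the authors' scaling was -0.02 and not called. These and the further genes of this paragraph and the next were picked after their values were seen. In the Sox list, 2 of 5 were called higher and 1 in edgeR, which was Sox4, the SoxC relative of Sox11 (0.40, and 0.25 in edgeR, adjusted p = 0.00143).

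Among 13 proneural and neurogenic bHLH and zinc finger genes, 6 were called higher and 1 in edgeR, namely Insm1 (0.48, and 0.34 in edgeR, adjusted p = 0.0321). Of the 3 POU class III relatives of Pou3f2 none was called, and in edgeR Pou3f1 was lower (-0.29, adjusted p = 0.00146). None of their 24 peaks was called higher and 4 were called lower, beside 11.0% and 2.91% of all tested peaks. In the 6 neural lists together, 70 of 717 tested peaks were called higher and 25 lower. Of 24 neural plate and patterning genes 8 were called higher, and in edgeR 3 were higher (Otx1, Otx2 and Rax) and 1 lower (Pax3). Otx1, a homeobox gene of the anterior brain, had the largest change of that list, from 125 ± 12.1 to 221 ± 8.08 (SD, n = 4 each), a log2 change of 0.82 and 0.64 in edgeR (adjusted p = 0.000117). Of 11 progenitor and neuron markers 5 were called higher, and in edgeR Dcx was higher and Map2 lower. Over the 6 lists, 25 of 75 genes were called higher and none lower, and in edgeR 8 and 4, and no difference from those shares of all genes was tested.

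Regulators of other lineages were counted in the same way, beside the same shares of all genes and the 11.0% of all peaks called higher and 2.91% lower. Of 9 endoderm genes 3 were called higher in either fit, with 8 of 57 peaks higher and none lower, and of 9 mesoderm and primitive streak genes 3 were called higher and 1 in edgeR, with 8 of 67 peaks higher and 3 lower. The median log2 change of the peaks was 0.12 at the endoderm genes and 0.18 at the mesoderm genes, beside 0.21 at the neural members. Over the 6 neural lists it ran from -0.07 (POU class III relatives) to 0.16 (proneural and neurogenic genes), and over all tested peaks it was 0.10. No difference between these groups of genes was tested.

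In the authors' deposited table, 8 of the 76 assigned peaks had a positive fold and an FDR under 0.05 and 1 a negative fold, where the shares over all peaks of that table were 9.19% and 1.80%. The authors' deposited table gave the Zfp521 peak at chr18:13712687-13712887 a log2 fold of 0.70 and the Sox21 peak at chr14:118230520-118230720 one of 0.79 (FDR 0.00061). The authors' deposited table also called the Sox21 start site peak (log2 fold 0.28, FDR 0.0349), and it did not call the Zfp521 peak at chr18:13692364-13692564.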

How the data were processed

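The 4 control and 4 paused ATAC-seq libraries were grouped by their titles. The value of each library at each peak is a signal deposited by the authors: 100% of the values in every library were whole multiples (within 0.006) of 1 step, so that they are reads divided by 1 factor per library. How the factors were made is not given in the sources used here. The authors also deposited a log2 fold and p-values with an FDR, used only in sentences that name that table. The submitters' processing notes name FastQC, Trim Galore, Bowtie2 2.4.1, MACS3 3.0.3, DiffBind 3.16.0 and build mm10, without their settings, so any handling of the Tn5 offset is not given in the sources used here.

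Genes and promoter windows came from RefSeq tables of GRCm38.p6 with 21887 protein-coding genes. Peaks fitted this build: 41.8% of gene ends had a peak within 1 kb, against 11.7% to 17.9% after a shift. A peak was assigned to the nearest protein-coding gene within 50 kb (a distance of 0 inside its span). Changes were tested with limma-trend (limma 3.58.1, R 4.3.3) on log2(value + 1) over all peaks, or all genes' summed values, with a mean of at least 10, Benjamini-Hochberg adjusted over all of them and called at 0.05. Fold changes on this scale understate those of weak peaks. Intervals are 95% and not adjusted. On the recovered reads, edgeR 4.0.16 (quasi-likelihood, TMM) called 9082 peaks higher and 7058 lower, where limma-trend called 13958 and 3702, and DESeq2 1.42.0 called 3902 and 1892. Steps were tested on simulated data. No per-sample column was left unused.

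Depth was 4434037 to 21161767 reads in peaks per library, and 3 reads, the limit that a count of 0 allows, are worth 1.04 (control replicate 1) to 5.08 (control replicate 3). Errors of counting cover sampling only, as PCR copies are not independent. Nothing states that replicates came from separate cultures, so p-values measure the spread between these samples, which may be technical.

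The peaks described singly are, for each gene, the one nearest to its start (or to either end for Hes1 and Zfp521) within 2 kb, the strongest, and up to 3 called peaks, with 1 peak each of Sox21, Nes, Pax6 and Bcan added after their values were seen. The gene most like Neurog2 is not reported here. The members, gene lists and tests were chosen with earlier results of these data known. Alternatives were the pseudocount (0.1), the filter (none, 30), edgeR, DESeq2, a loess correction, the window (10 kb), all peaks in the window, a replicate block, each library left out, and, chosen after seeing the data, the strongest peak dropped.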

Additional observations from a re-analysis of the deposited data

Results flagged for a closer look

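Of 60 groups of 4 values at the named peaks and gene sums, 1 had a sample far from the others: control replicate 4 at the Zfp521 peak chr18:13712687-13712887, with a value of 120.5 against 85.7 to 91.4 in the other control libraries. The gap was 0.836 of the group's range, above the 95% limit of Dixon's test for 4 values, which chance exceeds in about 1 of 20 groups. The value lies toward the paused libraries, and without that library the log2 change of the peak was the highest of those with 1 library left out, 0.88.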

How the results depend on the processing

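Peaks called higher numbered 8, and 4 with a mean of at least 30, 2 with DESeq2, 5 after the loess correction, 4 in a 10 kb window and 4 to 8 with 1 library left out. Peaks called lower numbered 1, and 0 with a mean of at least 30, DESeq2, the loess correction or the 10 kb window, and 0 to 2 with 1 library left out. Genes called numbered 5, and 1 with edgeR, DESeq2 or the loess correction, 3 in the 10 kb window, 6 (Nes added) with all peaks in the window and 4 to 5 with 1 library left out; the cause was not tested. The pseudocount and no filter left these counts as they were. With the strongest peak dropped, 4 genes were called, in a fit that called 3080 of 14976 genes higher. Counts over the whole table moved as well. With a mean of at least 30, 12941 of 71426 peaks were called higher and 1656 lower, against 13958 and 3702 of 127402. With 1 library left out, 8980 to 12689 peaks were called higher and 2314 to 3871 lower. Genes called higher numbered 5364 of 18113. They were 4539 of 17526 in the 10 kb window and 3588 to 5523 with 1 library left out.

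Sums changed sign with edgeR, DESeq2 and the loess correction at Pax6 (-0.0068, -0.0042 and -0.029), Nes (-0.049, -0.051 and -0.11), Neurog2 (-0.085, -0.085 and -0.14) and Pou3f2 (-0.010, -0.0050 and -0.0037), and with the strongest peak dropped at Nes (-0.23) and Neurog2 (-0.0063). After the loess correction the sign changed at the peaks nearest to the starts of Sox1 (-0.0087) and Neurog2 (-0.063). With edgeR it changed at the peak nearest to the Pou3f2 start (-0.031). The strongest Pou3f2 peak changed sign with edgeR (-0.00032), DESeq2 (-0.0089) and the loess correction (-0.12). With 1 library left out that peak ranged from -0.023 to 0.16 and the Hes1 peak nearest to an end from -0.19 to 0.0012.

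With a replicate block, 9 peaks were called higher, the Sox21 start peak (adjusted p = 0.0293) being the one added, with 1 lower and 5 genes. The numbers are not shown to pair the libraries: same-numbered deviations correlated at 0.079, 0.036, 0.13 and 0.039, and while control replicates 1, 3 and 4 correlated best with their own number, control replicate 2 did so with paused replicate 1 (0.070).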
